A study of Caenorhabditis elegans with 4 samples.

Results

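The regions described here are the 3364 intervals on chromosome V in the list of peaks and background that was made from the merged replicates of a ChIP-seq experiment on UNC-62 in Caenorhabditis elegans. They were chosen by chromosome alone and are 18.1% of the 18556 merged regions, whereas V is 20.9% of the length of the 6 nuclear chromosomes. Chromatin bound by the tagged protein was recovered from whole L3 larvae of strain OP600, pooled males and females, and the recovered DNA was sequenced. The strain carries the allele unc-119(ed3) and the integrated transgene wgIs600, which holds unc-62 fused to TY1, EGFP and FLAG tags together with unc-119. All 4 samples were biological replicates of this 1 genotype and stage, and no untagged or unc-62 mutant group was analysed, so every comparison below is between places on chromosomes. In the labels, replicates 1 and 2 have a DNA size range (150 to 350 bp) and worms from a stock center, whereas replicates 3 and 4 have microtip sonication and worms from the laboratory itself.

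UNC-62 is the worm member of the Homothorax and MEIS family of TALE homeodomain proteins, which bind DNA beside PBX-type and Hox partners and take part in patterning the embryo and larva. The protein is made in several larval tissues, and whole animals mix all of them. Worm autosomes have a gene-dense centre with low recombination and arms with high recombination and more repeats, and chromosome V is known for large tandem families of chemoreceptor, F-box and nuclear hormone receptor genes that have expanded in nematodes.

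The letters TGACAG are the core that MEIS-family homeodomains are known to contact, and the sequences below show them (capitals, read on the plus strand, with CTGTCA where the match is on the minus strand) in the 101 bp around the summits of optimal peaks on V. An optimal peak is a region that the authors kept after filtering with the irreproducible discovery rate, which scores how well the ranks of a region match across replicates. On V these peaks ranked from 7 to 1035 by signal among the 18556 merged regions. They need not be strong in every replicate, as the counts by replicate below show. V was divided by length into 3 equal parts, called left, middle and right; for each, the 2 optimal peaks of highest signal that hold TGACAG and touch no UTR are printed, except that 1 such peak was found in the left part. All were read from the RefSeq genome of build ce11 (WBcel235), 5′ to 3′ on the plus strand.
Left part, intron of C25A6.1, signal 68.2, chrV:5409081-5409181: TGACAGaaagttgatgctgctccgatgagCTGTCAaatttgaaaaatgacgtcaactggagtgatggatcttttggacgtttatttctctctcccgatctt
Middle part, intergenic, 2434 bp upstream of lpin-1, signal 115.9, chrV:13656513-13656613: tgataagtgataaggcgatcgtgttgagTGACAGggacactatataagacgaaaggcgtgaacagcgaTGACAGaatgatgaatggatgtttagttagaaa
Middle part, intergenic, 1138 bp upstream of pacs-1, signal 101.3, chrV:9218346-9218446: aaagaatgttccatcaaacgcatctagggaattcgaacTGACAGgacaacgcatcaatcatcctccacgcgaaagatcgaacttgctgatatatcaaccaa
Right part, intergenic, 2132 bp upstream of tcc-1, signal 56.7, chrV:17858071-17858171: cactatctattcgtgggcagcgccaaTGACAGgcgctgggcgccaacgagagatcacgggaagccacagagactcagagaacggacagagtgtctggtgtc
Right part, intergenic, 1731 bp upstream of elp-1, signal 42.1, chrV:20771842-20771942: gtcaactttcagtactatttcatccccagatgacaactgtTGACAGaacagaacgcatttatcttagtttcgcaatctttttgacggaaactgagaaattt
The peaks in C25A6.1 and upstream of lpin-1 hold 2 matches each, and the others hold 1.

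Within the whole merged list, 190 of the 3364 regions on V had TGACAG on either strand within 50 bp of the summit, or 5.65%, against 5.39% of all merged regions. Among the 162 optimal peaks on V the count was 17, or 10.5%, close to the 10.1% of all optimal peaks. Windows of 101 bp tiled over V held TGACAG in 3.51% of cases in the left part, 3.83% in the middle part and 3.20% in the right part. The merged regions of the same parts held it in 5.35%, 6.23% and 5.06%. In the highest-signal regions of the single replicates on V, defined below, replicates 1 to 4 had it in 9.30%, 7.81%, 6.18% and 5.71% of cases, with a mean of 7.25% ± 1.64 (SD, n = 4), so every replicate lay above the tiled windows. By part, 2 of 45 optimal peaks on the left, 10 of 89 in the middle and 5 of 28 on the right held the letters. The run GAGAGAGA, the kind of repeat that GAGA-type factors bind in flies, was in 54 regions on V, or 1.61%, against 2.38% of all merged regions. It was in 12 of the 162 optimal peaks on V, or 7.41%, against 9.55% of all optimal peaks, and 6 of these were among the 28 optimal peaks of the right part. A match of letters is a description of the window and not evidence of a bound site.

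The authors' list gives 1 signal value per region. On V the signal ran from 10.7 to 210.5 with a median of 14.0, and the ranks in the merged list, where 1 is the highest signal, ran from 7 to 18549 with a median of 9646.5. For chromosomes I to IV together the median rank was 9348 and for X it was 8580. Nearly all regions had the same width of 356 bp, which was the width of 3354 of the 3364; 7 were narrower, 3 were wider, and the range was 95 to 428 bp. Of the 10 regions of another width, 8 lay in the left part, and all of these but the ones nearest to W06H8.6 and F48G7.4 were nearest to unc-62, the tagged gene. Neighbouring regions overlapped in 183 cases, so the regions are not independent places. The lists of the replicates held 5687, 5778, 5586 and 5407 regions on V in replicates 1 to 4, of 30000 in each of the first 3 and 28073 in replicate 4. No read counts are in these lists, so the sequencing depth behind a region is unknown.

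V held fewer regions for its length than the other autosomes, and its regions were concentrated in the centre. There were 160.8 merged regions per Mb on V, against 184.1 on I to IV and 217.0 on X. Chromosome IV was close to V, with 168.2 merged regions per Mb, and had 7.60 optimal peaks per Mb against 7.74 on V. The middle part of V held 1412 regions (202.4 per Mb), the left part 1102 (158.0 per Mb) and the right part 850 (121.9 per Mb). Protein-coding genes were spread more evenly, with 257.6, 222.8 and 235.6 genes per Mb in the middle, left and right parts. Optimal peaks followed the same order more steeply, with 89 in the middle, 45 on the left and 28 on the right.

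Each replicate was then read on its own, from its K highest-signal nuclear regions, where K is the number of optimal peaks, 1037. Of these, 172, 192, 178 and 175 lay on V in replicates 1 to 4. The middle part held 96, 104, 96 and 96 of them, the left part 49, 57, 48 and 47, and the right part 27, 31, 34 and 32. The counts of the 3 parts did not overlap between replicates. The middle part had 14.1 ± 0.573 such regions per Mb and the outer parts together 5.82 ± 0.367 (SD, n = 4), a ratio of 2.42 ± 0.0830. The difference was 8.23 ± 0.306 per Mb and was positive in 4 of 4 replicates (exact two-sided sign-flip permutation test, p = 0.125, adjusted p = 0.179 over 10 tests). With 4 replicates 0.125 is the smallest p that this test can give, and the p-values measure only the spread between these samples. Within the label sets the difference was 8.32 and 8.602 per Mb in replicates 1 and 2, and 7.89 and 8.10 in replicates 3 and 4.

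**Figure D1:**
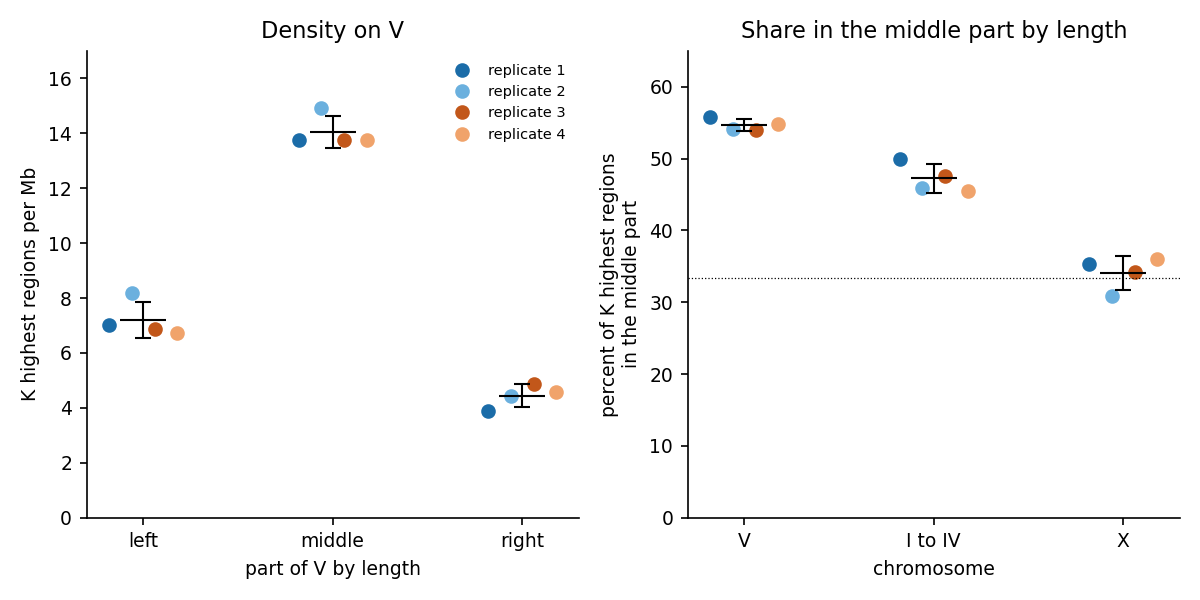
Left, the K highest-signal regions of each replicate per Mb in the left, middle and right part of V by length; right, the percent of those regions that lay in the middle part of V, of chromosomes I to IV and of X. Points are replicates, bars are the mean and SD of 4, and the dotted line marks the share of length in the middle part; the middle of V stands at 14.1 per Mb, above 7.20 on the left and 4.44 on the right.

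Chromosomes I to IV as a pool had the same lean towards the centre to a smaller extent. The middle part held 55.8%, 54.2%, 53.9% and 54.9% of the K highest regions of V in replicates 1 to 4, and 50%, 45.9%, 47.5% and 45.5% of those of I to IV. V was higher in 4 of 4 replicates, by 7.47 ± 1.66 percentage points (SD, n = 4; exact two-sided sign-flip permutation test, p = 0.125, the smallest possible). On X the middle part held 34.1% ± 2.33, near its share of length, and V was higher by 20.6 ± 1.98 points in 4 of 4 replicates with the same exact p of 0.125. The right part of V held 17.3% ± 1.64 of the K highest regions, against 27.9% ± 1.89 on I to IV, a difference of -10.6 ± 1.62 points in 4 of 4 replicates (exact permutation p = 0.125). Single chromosomes were not tested. The middle parts of I and II were close to that of V, with 87 of 167 and 85 of 163 optimal peaks, beside 89 of 162. Those of III and IV had 74 of 163 and 56 of 133. Of merged regions, the middle part held 40.1%, 41.5%, 37.5% and 37.8% on I, II, III and IV, beside 42.0% on V. By optimal peaks the right part of I was similar, with 30 of 167, beside 28 of 162 on V. The right parts of II, III and IV had 49 of 163, 50 of 163 and 43 of 133. On II the left part was the low one, with 29 of 163. As a whole V held 17.3% ± 0.853 of the K highest regions and 20.9% of the length, a shortfall in 4 of 4 replicates (difference -3.58 ± 0.853 points, exact permutation p = 0.125). These differences were much smaller over the full lists of the replicates, at 1.41 points for the middle part and -2.85 for the right part against I to IV, 3.94 for the middle part against X, and -1.83 for V against its length, with the sign kept in 4 of 4 replicates. By optimal peaks chromosome IV fell short of its length too, with 12.8% of them on 17.4% of the length. V had 15.6% of them on 20.9%.

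**Figure D2:**
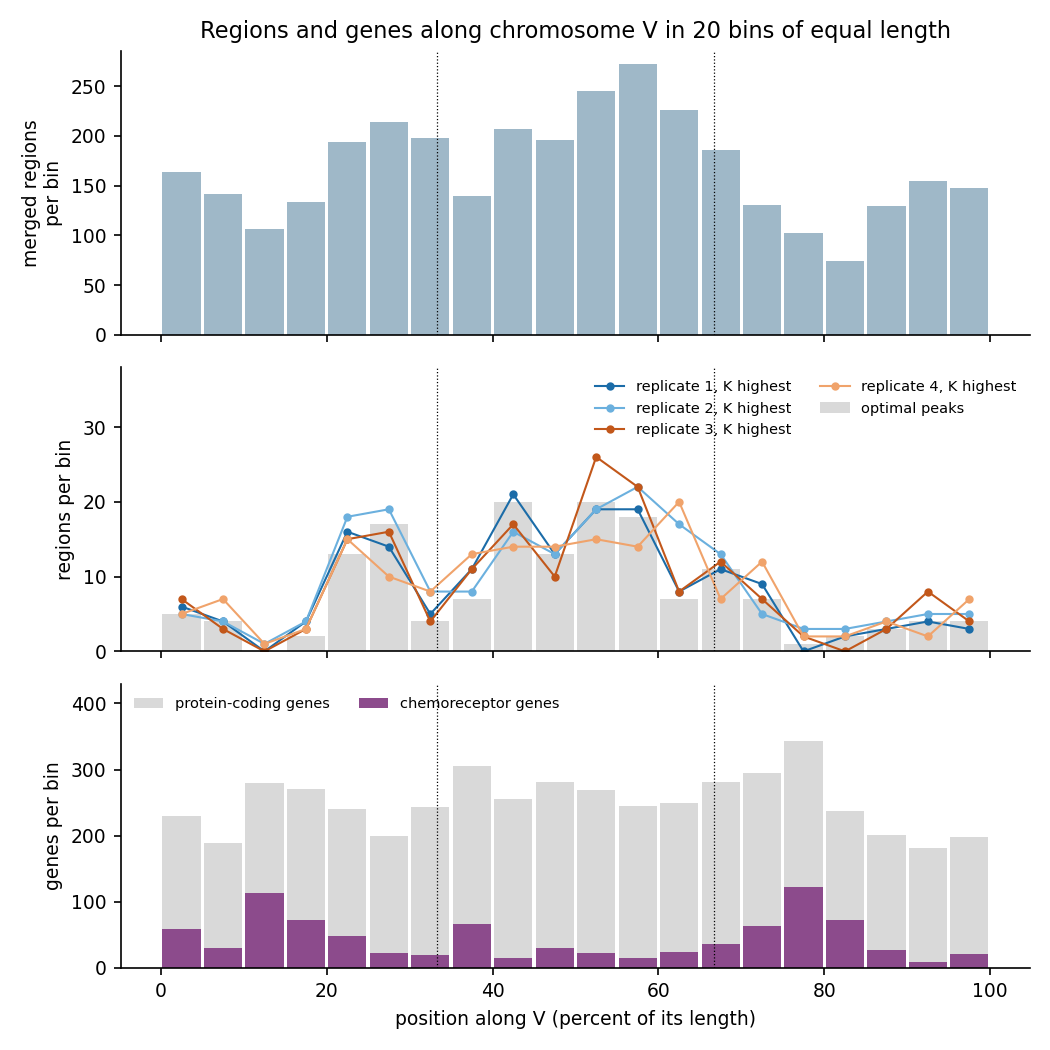
Counts in 20 bins of equal length along V, with position as percent of its length: merged regions (top), optimal peaks as bars with the K highest-signal regions of each replicate as lines (middle), and protein-coding genes with the chemoreceptor genes among them (bottom). Dotted lines divide V into 3 equal parts; the bin from 55 to 60 percent holds 272 merged regions and the bin from 80 to 85 percent holds 74.

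In finer steps the merged regions ranged from 74 to 272 per bin of 5% of the length. The bin from 55% to 60% of V held the 272 and the bin from 50% to 55% held 245, with 18 and 20 optimal peaks. The low bins were those from 10% to 15%, with 106 merged regions and 0 optimal peaks, and from 75% to 85%, with 102 and 74 merged regions and 1 and 2 optimal peaks. The bin from 10% to 15% held 113 chemoreceptor genes among its 279 protein-coding genes, and that from 75% to 80% held 122 among 343. The K highest regions of the replicates agreed on the first of these: 0, 1, 0 and 1 of them lay between 10% and 15% of V. From 20% to 30% of V, in the left part, optimal peaks rose to 13 and 17 per bin; the first of these bins contains unc-62 itself.

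The strongest regions and optimal peaks of the left part were concentrated around the tagged gene. unc-62 lies on V at 4497461 to 4511449, and within 30000 bp of either end there were 45 of the 1102 merged regions of the left part and 12 of its 45 optimal peaks, a density of 608.2 regions per Mb. The replicates placed 13, 14, 14 and 11 of their K highest regions in this window. The left part as a whole had more of the K highest regions than the right part in 4 of 4 replicates, by 2.76 ± 0.823 per Mb (exact two-sided sign-flip permutation test, p = 0.125). Without the window the left part kept 36, 43, 34 and 36 regions, beside 27, 31, 34 and 32 on the right, and in replicate 3 the counts were equal. The difference then fell to 0.896 per Mb (positive in 3 of 4 replicates, exact permutation p = 0.25). The left part of V held 28% ± 1.35 of the K highest regions of V, against 24.9% ± 0.726 on I to IV, but without the window the difference of 3.09 ± 0.879 points turned to -2.54 points, negative in 4 of 4 replicates. The middle against the outer parts kept its direction, at 9.16 per Mb without the window. The transgene carries unc-62 as well as the chromosome, and signal from the 2 copies cannot be told apart in these lists.

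Other dense stretches were short. V was cut into 209 full windows of 100 kb, which held a median of 15 merged regions and a maximum of 40. The window from 6200001 to 6300000, in the left part, held the 40 regions and 7 optimal peaks among 17 protein-coding genes, and its strongest region lay in W06H8.6. The windows from 8600001 to 8700000 (39 regions, 6 optimal) and from 12500001 to 12600000 (38 regions, 7 optimal) were the next, both in the middle part. Their strongest regions were intergenic and over 5000 bp from any start. The nearest starts were those of asp-13, an aspartyl protease gene, with the summit 10319 bp upstream, and F45D3.1, with the summit 6962 bp downstream. Each replicate had some of its K highest regions in these 3 windows: 6, 8, 11 and 5 in the first, 5, 5, 8 and 3 in the second and 6, 7, 9 and 5 in the last. Optimal peaks were clustered. With the unc-62 locus included, 7 of the 209 windows held 5 or more and together 43 of the 162 on V, whereas 125 windows held 0. The window from 4500001 to 4600000, with 7 optimal peaks all nearest to unc-62, is among those counted. Of the empty windows 26 were in the middle part, 47 in the left and 52 in the right.

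The longest stretch of V without a merged region was 221269 bp, at 2344154 to 2565422 in the left part, with 48 protein-coding genes of which 19 are chemoreceptor genes. The full lists of the replicates were almost empty there too, with 3, 2, 1 and 1 regions. The longest stretch without an optimal peak ran over 1500652 bp, from 1890385 to 3391036, and contains the first. It held 393 protein-coding genes, 136 of them chemoreceptor genes, and 157 merged regions that were not optimal. Next came stretches of 891930 bp and 888080 bp in the right part, at 16966013 to 17857942 and 18079586 to 18967665, with 81 chemoreceptor genes among 198 and 11 among 170, beside 889 among 4994 on all of V, so the last of them was not rich in chemoreceptor genes.

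Signal followed position. The median signal was 14.6 in the middle part, 13.9 on the left and 13.2 on the right, with median ranks of 8574.5, 9779 and 11072, although the strongest region of all on V was in the left part (210.5) and the maxima of the middle and right parts were 149.0 and 112.5. On V 182 regions overlapped an optimal peak by at least 1 bp, or 5.41%, against 6.1% of all merged regions and 4.89% on IV. The share was 7.08% in the middle part (100 regions, 95% Wilson interval 5.86% to 8.54%), 4.63% on the left (51 regions, 3.54% to 6.03%) and 3.65% on the right (31 regions, 2.58% to 5.13%); the intervals cover counting error only. Without the unc-62 window the left part had 38 of 1057, or 3.60%, close to the right part. The optimal list rests on the same signal values and replicates, so this share describes the signal again.

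Few of the merged regions were met by the strongest regions of every replicate. On V 27 regions, or 0.803%, were overlapped by 1 of the K highest regions of all 4 replicates, against 0.889% of all merged regions. On IV the share was 0.544%. V had 54 regions met in 3 replicates, 85 in 2, 284 in 1 and 2914 in none. The 27 fell 8, 15 and 4 into the left, middle and right parts, or 0.726%, 1.06% and 0.471% of the regions there. Of the 8 on the left, 4 lay in the unc-62 window. Neighbouring merged regions can be met by the same replicate regions, and 22 different sets of replicate regions lay behind the 27. Of the 162 optimal peaks on V, 23 were met in all 4 replicates (14.2%), 49 in 3, 51 in 2, 35 in 1 and 4 in none, and the other 4 of the 27 had the same replicate regions as an optimal peak beside them. With the full replicate lists 397 regions on V, or 11.8%, were overlapped in all 4, against 13.1% of all merged regions, and the share by part was 10.6%, 14.1% and 9.53%. Regions met by none of the full lists were 79 on V, or 2.35%, against 2.00% of all merged regions. The merged signal was higher where more replicates agreed, with medians of 13.4, 22.7, 41.1, 59.1 and 83.2 for 0 to 4 replicates, as the merged list was made from the same reads. Across regions on V present in both lists, merged rank and replicate rank had a Spearman rho of 0.560 (n = 2382), 0.427 (n = 1744), 0.357 (n = 1935) and 0.256 (n = 1544) for replicates 1 to 4, a description over regions that share libraries.

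Replicate 4 stood apart in this respect. Of its 175 K highest regions on V 130 overlapped any merged region, or 74.3%, against 172 of 172, 188 of 192 and 168 of 178 in replicates 1 to 3. In the right part the number was 11 of 32, or 34.4%, against 27 of 27, 31 of 31 and 33 of 34. On I to IV the share for replicate 4 was 78.5% and on X 84.8%. The 162 optimal peaks on V were overlapped by a K highest region in 128, 107, 91 and 50 cases in replicates 1 to 4. Without replicate 4, the share of V regions found in all the remaining replicates was 1.81%. Leaving out any replicate cannot lower this share, and without replicates 1, 2 and 3 it was 0.862%, 1.10% and 1.04%.

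**Figure D3:**
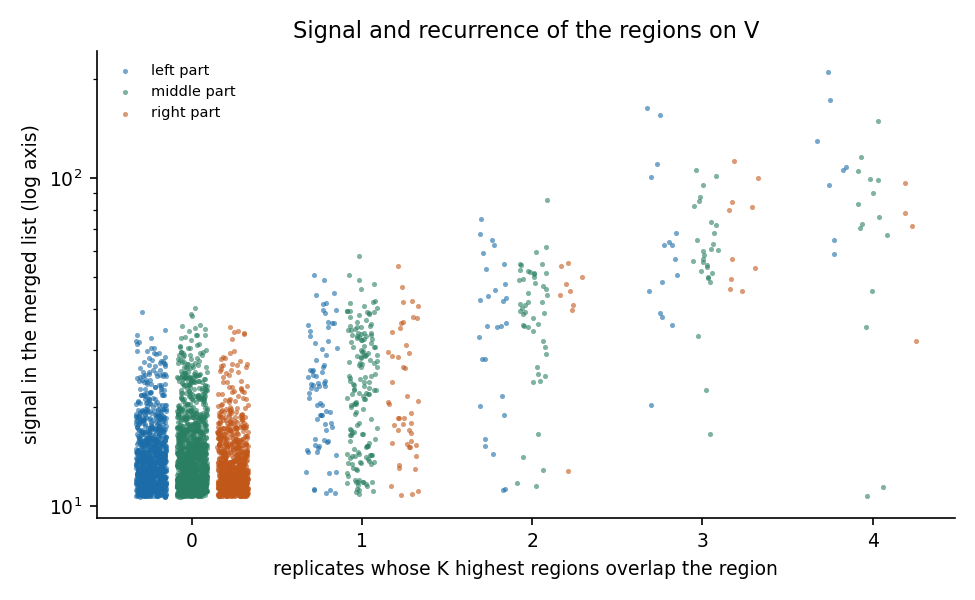
Signal in the merged list (log axis) of each of the 3364 regions on V, by the number of replicates whose K highest-signal regions overlap it and by part of V. Each point is a region, shifted sideways for legibility; regions met in 4 replicates have a median signal of 83.2 and those met in none 13.4, and 4 of the 27 in the last column are in the right part.

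Each summit was given 1 annotation class. A summit up to 1000 bp before a transcript start of a protein-coding gene was called a promoter summit, and any other was assigned to the 5' UTR, a coding exon, the 3' UTR, an intron or intergenic sequence, the first that applied in that order. On V 1093 regions, or 32.5%, were promoter summits, against 29.7% on I to IV and 26.8% on X; promoter bases were 25.8% of V. Introns held 23.8% of the regions and 23.9% of the bases, and intergenic sequence 26.1% and 24.7%. Coding exons held 12.8% of the regions and 22.5% of the bases. By part, promoter summits were 31.9% of the left, 35.6% of the middle and 28% of the right part, beside 25.8%, 27.7% and 24.1% of the bases there. Coding exon summits were 11.5%, 13.1% and 13.9%, beside 21.9%, 25.5% and 20.04% of the bases. The 162 optimal peaks were 66 in promoters, 58 intergenic, 26 in introns, 8 in 5' UTRs, 4 in coding exons and 0 in 3' UTRs.

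**Figure D4:**
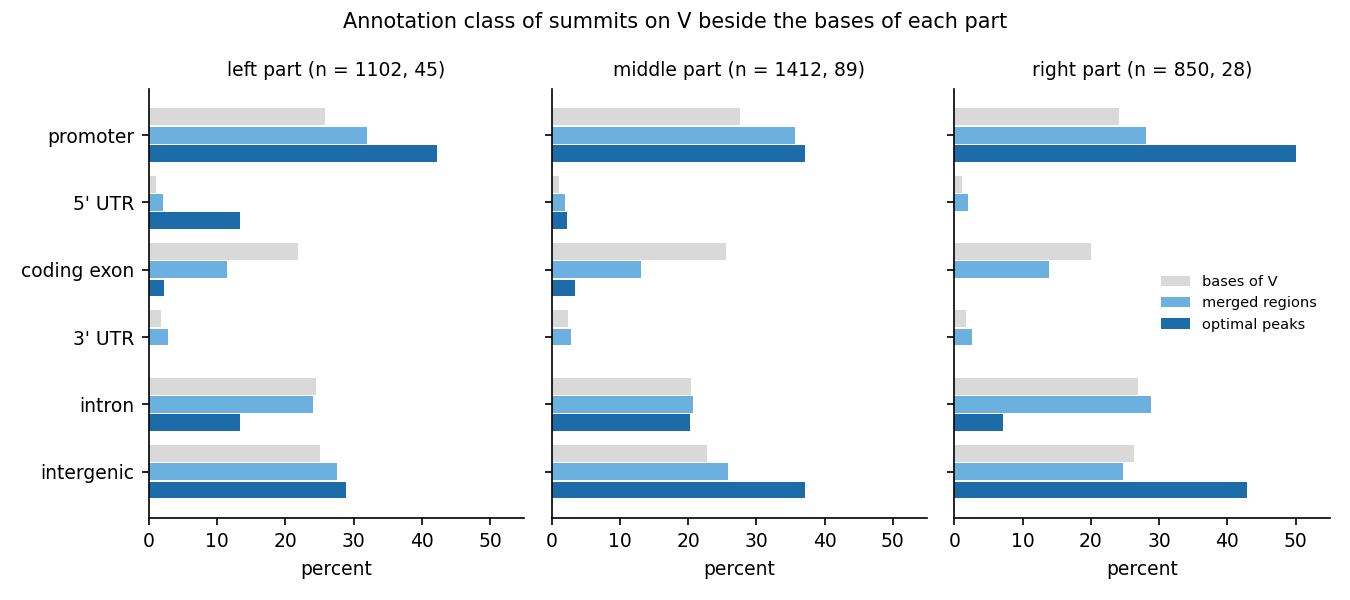
Percent of bases, of merged regions and of optimal peaks in each annotation class, for the left, middle and right part of V; numbers in the panel titles are merged regions and optimal peaks. Coding exons hold a smaller share of regions than of bases in every part, and promoters a larger one.

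In the replicates' K highest regions the promoter and coding exon shares of the centre of V and of its ends differed by about the spread between replicates, and the sign depended on settings. The promoter share was 38.5%, 41.3%, 39.6% and 32.3% in the middle part and 47.4%, 40.9%, 41.5% and 41.8% in the outer parts in replicates 1 to 4, a difference of -4.94 ± 4.97 points (negative in 3 of 4 replicates, exact two-sided sign-flip permutation p = 0.25). This sign turned with the number of regions taken: with double K the difference was 3.82 points and with the full lists 3.75 points. At the same K it was negative in 4 of 4 replicates with the outer parts made narrower and the middle part wider (-6.68 points), with a promoter window of 500 bp (-4.93) and without the unc-62 window (-6.10), each with the smallest exact p of 0.125. The coding exon share of V was 2.91% and 3.13% in replicates 1 and 2, and 5.62% and 12.0% in replicates 3 and 4, so both replicates of the microtip set lay above both of the other set. The middle and outer parts had 6.45% ± 4.51 and 5.27% ± 4.10, a difference of 1.18 ± 1.77 points (3 of 4 replicates, exact permutation p = 0.375), which was -0.97 with double K, 1.69 in 4 of 4 replicates with the full lists and 0.231 without the unc-62 window. Promoters held 40.2% ± 2.53 of the K highest regions of V and 39.1% ± 4.41 of those of I to IV (difference 1.06 ± 2.39 points, 3 of 4 replicates, exact permutation p = 0.375). The 5' UTR class was 12.2%, 12.3%, 12.5% and 8.51% in the left part and at most 4.17% in any replicate elsewhere on V; 5, 6, 4 and 4 of those left-part regions were in the unc-62 window.

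Summits lay at a median of 988.5 bp from the closest transcript start of a protein-coding gene, against 1190 bp over all merged regions, and 889 bp, 998.5 bp and 1169.5 bp in the middle, left and right parts. The K highest regions of the replicates on V had medians of 989, 891, 1026.5 and 880 bp. Over 5000 bp from any start lay 176 regions. Of the 1093 promoter summits on V, 141, or 12.9%, were upstream of genes on both strands, and 8.51% of promoter bases were. The regions had 1931 different nearest genes; 87 genes were nearest to 5 or more regions. unc-62 led with 24 regions, 11 of them optimal. T28B11.1, singled out after its count was seen, followed with 23 regions of which 6 were optimal, the strongest in one of its introns with signal 98.4. par-1, a polarity kinase, had 14 regions and 0 optimal peaks.

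Among the 6 strongest regions of each part, all 18 were optimal peaks and all were overlapped by a K highest region in at least 3 replicates, 8 of them in all 4. Promoter summits were 8 of the 18, and 9 lay over 1000 bp from the nearest start. Replicate 1 had 18 of the 18 among its K highest, replicate 2 had 16, replicate 3 had 17 and replicate 4 had 11. Signal chose these regions, with merged ranks from 7 to 144, and the optimal peak of lowest signal on V had rank 1035. Being optimal therefore adds little to that choice, and these counts and what follows are a description. Ranks are given in each replicate's full list, where 1 is the highest signal.

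In the left part 4 of the 6 were at or near unc-62, the gene of the tagged protein. The first, at 4499362 to 4499787, had signal 210.5 and merged rank 7, with ranks 2, 11, 25 and 117 in replicates 1 to 4; its summit was 68 bp downstream of one start and within the promoter window of another. The region at 4491392 to 4491569, 5985 bp upstream of the nearest unc-62 start, had signal 163.3 and ranks 14, 8, 62 and 4328. Inside the gene, in its 5' UTR class, the regions at 4507781 to 4508124 and 4508114 to 4508477 had signals of 156.1 and 129.7. The first of these had ranks 27, 1 and 22 in replicates 1, 2 and 4 and no overlapping region in replicate 3, and the second had 36, 652, 21 and 22. Away from unc-62, an intron of W06H8.6 held the region at 6224545 to 6224733, 189 bp wide, with signal 173.2 and ranks 7, 29, 98 and 49. The promoter of F48G7.4, near the left end of V, held one with signal 110.3 and ranks 65, 184, 84 and 6490.

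The strongest region of the middle part was in the promoter of his-37, a histone gene, 89 bp upstream of its start at 9546923 to 9547104. Its signal was 149.0 and its ranks were 23, 32, 56 and 69, high in every replicate. The region 2434 bp upstream of lpin-1, the lipin of lipid synthesis whose sequence is shown above, had signal 115.9 and ranks 78, 15, 75 and 621. The promoter of drap-1, a homologue of a subunit of a transcriptional corepressor, had signal 105.5 and ranks 72, 5415, 68 and 41. C34B4.2 followed with signal 104.9, 123 bp downstream of its start, and ranks 133, 23, 78 and 954. pacs-1, a homologue of sorting proteins of vesicle traffic, had 2 strong regions upstream of its start. The one at 1138 bp, shown above, had signal 101.3 with ranks 63, 47 and 94 and no overlapping region in replicate 4, and the one at 1935 bp had signal 99.5 with ranks 83, 75, 290 and 715.

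In the right part Y43F8B.2 had both the strongest region, in an intron at 19529182 to 19529537 with signal 112.5, and the sixth, 33 bp upstream of its start with signal 80.1. Their ranks were 30, 2480, 114 and 366, and 426, 64, 102 and 24218. A region 1967 bp upstream of hif-1, the hypoxia-inducible factor, had signal 100.3 and ranks 40, 293, 235 and 2188. egl-9, the prolyl hydroxylase that acts on HIF-1, is also on V, in the middle part, and had an optimal peak of signal 82.1 lying 1794 bp upstream of it (named after the values were seen). The region nearest atfs-1, the factor of the mitochondrial unfolded protein response, was 3898 bp downstream of its start, with signal 96.6 and ranks 111, 63, 688 and 73, and was the only one of the 6 in the K highest regions of all replicates. One summit lay 311 bp upstream of C47E8.4 and 364 bp upstream of one start of hsp-90, the cytosolic chaperone gene, while inside the span of a longer hsp-90 transcript, with signal 84.7 and ranks 157, 617, 176 and 2119. The last of the 6, 15 bp upstream of Y39B6A.43, had signal 81.3 and ranks 261, 113, 622 and 4937. Replicate 4 placed 2 of the 6 among its K highest, against 4 of 6 on the left and 5 of 6 in the middle.

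Genes were scored by a merged summit from 1000 bp upstream to 200 bp downstream of any of their starts. On V 1194 of 4994 protein-coding genes had one, or 23.9%, against 29.1% of all 19973 genes, and 77 genes, or 1.54%, had an optimal summit there, against 2.63% of all. The chemoreceptors, seven-transmembrane proteins of sensory neurons, were the largest family on V, with 889 of their 1308 genes. Of the 889, 98 had a merged summit at a start, or 11.0% (95% Wilson interval 9.13% to 13.3%), while 26.7% of the other 4105 genes on V did. The 419 chemoreceptors on other chromosomes had a share of 12.2%, so the low share was not peculiar to V. Of the 889, srh-2 and srh-76 had an optimal summit, with signals of 63.9 and 62.6; their ranks were 173, 524, 511 and 8578, and 249, 1645, 370 and 312 in replicates 1 to 4. Next by signal was srh-17, with 36.4 and ranks 512 and 1356 in replicates 1 and 2 with no overlapping region in replicates 3 and 4.

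The parts were also described with the chemoreceptors left out. Among the other protein-coding genes 32.6% had a merged summit at a start in the middle part (518 of 1589), 28.1% on the left (338 of 1202) and 18.3% on the right (240 of 1314). Optimal summits were at 2.58%, 1.41% and 1.29% of them. The chemoreceptors themselves had 12.0%, 12.2% and 9.12% in the middle, left and right parts. The other genes of the right part include 75 of the 87 F-box genes and 59 of the 86 C-type lectin genes of V, described below. Whether gene families account for the difference between parts was not tested.

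**Figure D5:**
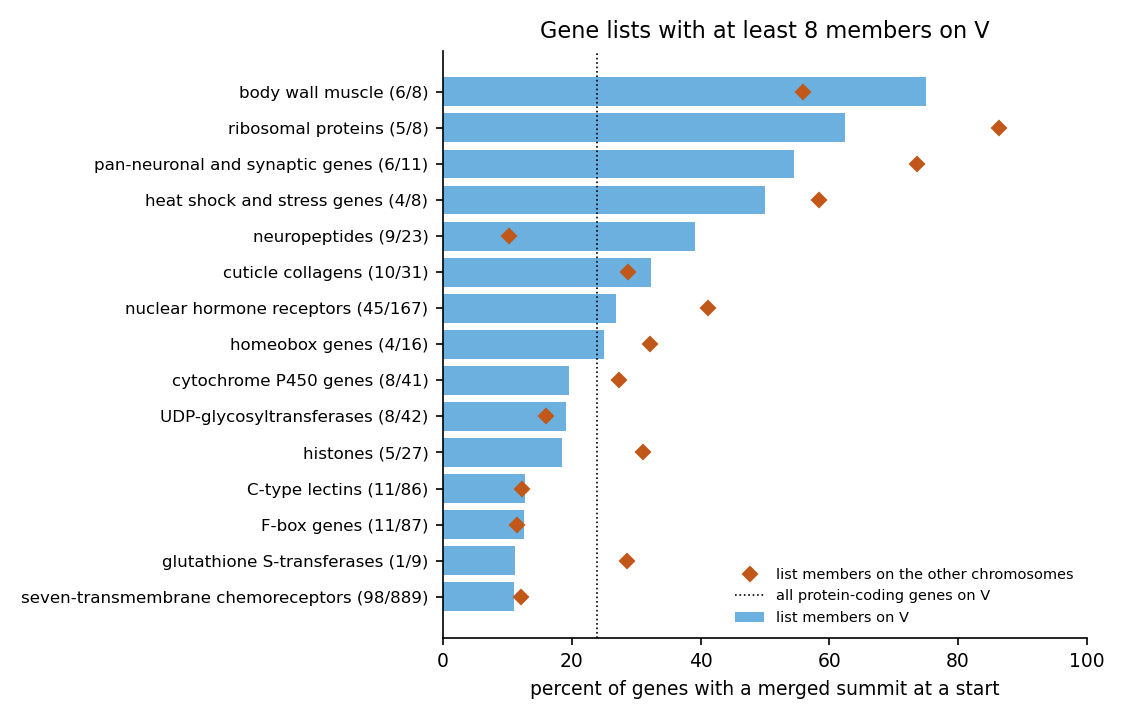
Percent of protein-coding genes with a merged summit from 1000 bp upstream to 200 bp downstream of a start, for lists with at least 8 members on V: bars for members on V (counts in the labels), diamonds for members on the other chromosomes, and a dotted line at 23.9% for all genes on V. Chemoreceptors, C-type lectins and F-box genes lie between 11.0% and 12.8%, and body wall muscle genes at 75%.

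F-box and C-type lectin genes were low too. Of 87 F-box genes on V, which encode substrate adaptors of ubiquitin ligases, 11 had a merged summit (12.6%), with fbxa-90 the one with an optimal summit (signal 45.3, ranks 721, 461, 14424 and 25552). That summit lay 979 bp upstream of fbxa-90 but was nearest to efl-1, 160 bp upstream of its start. C-type lectin genes, many of them known for induction by pathogens, had 11 of 86 (12.8%) and 0 optimal; clec-264 was the highest at 19.4. Cytochrome P450 genes had 8 of 41 (19.5%), UDP-glycosyltransferases 8 of 42 (19.0%) and glutathione S-transferases 1 of 9, with 0 optimal, where the share of all V genes was 23.9% for merged and 1.54% for optimal summits. The nuclear hormone receptors were near that share, with 45 of 167 (26.9%) on V, and had 42 of 102 (41.2%) elsewhere. By part, 28 of 78 had a summit on the left, 10 of 41 in the middle and 7 of 48 on the right. nhr-68, a receptor of the propionate breakdown pathway, had the one optimal summit, with signal 41.7 and ranks 1844, 256 and 23804 and no region in replicate 4. It lay 324 bp upstream of nhr-68 but was nearest to H12C20.7, 126 bp upstream of its start.

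Lists of broadly used and of tissue genes were small on V, and their shares ran from below to above the 23.9% of all V genes. Ribosomal protein genes had 5 of 8 on V, beside 63 of 73 elsewhere; rpl-28 led with signal 34.2, and rpl-39 and rps-30 shared 1 region of signal 19.9. Body wall muscle genes had 6 of 8, with optimal summits at unc-60, the cofilin gene (48.8, ranks 1344, 133, 7152 and 3894), and unc-112, the kindlin of muscle attachments (40.8, ranks 522, 2463, 24095 and 12127). Neither was among the K highest of more than 1 replicate. Pan-neuronal and synaptic genes had 6 of 11, among them unc-76, which is needed for axon outgrowth, at 71.5 with ranks 1002, 73, 61 and 47, and the neuronal exchange factor gene rgef-1 at 40.1 with ranks 1047, 5342, 28129 and 25442. Heat shock and stress genes had 4 of 8, with hsp-90 above and the mitochondrial chaperone hsp-6 at 27.3. Neuropeptide genes had 9 of 23 on V (39.1%) and 12 of 117 elsewhere (10.3%); the highest were nlp-24, nlp-33 and nlp-29, at 24.1, 21.95 and 18.9, and nlp-29 and nlp-33 are known as antimicrobial peptide genes of the epidermis. Histone genes had 5 of 27 (18.5%), with his-37 far above his-8 (23.9) and his-6 (16.1); copies of histone genes are close in sequence, so placement of reads between them is uncertain. Cuticle collagens had 10 of 31 and 0 optimal, led by col-10 at 28.03. Homeobox genes had 4 of 16 (25%), near the share of all V genes, with unc-62 above ceh-79 (20.4) and ceh-76 (12.7). On the other chromosomes, where 30.8% of all genes had a merged summit, pan-neuronal and synaptic genes had 28 of 38. Body wall muscle genes had 19 of 34 there, and heat shock and stress genes 7 of 12. Histone genes had 14 of 45 there, cuticle collagens 36 of 125 and homeobox genes 26 of 81.

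Small lists had few members to count on V. The share of all V genes with a merged summit was 23.9%. MATH and BATH genes had 3 of 3 on V but 11 of 70 elsewhere, and on V bath-36 led at 26.7. The chromatin genes of NuRD type had 2 of 3 on V, lin-40 at 27.7 and the Mi-2 homologue let-418 at 19.8, and 5 of 10 elsewhere. The epidermal and seam cell list had 2 of 2 on V, dpy-11 at 14.2 and the collagen gene sqt-3 at 11.6, and 10 of 24 elsewhere. None of these regions was optimal. Outside the start window, an optimal peak of signal 50.8 lay 3723 bp upstream of let-418.

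Of the short noncoding RNA genes (tRNA, snRNA, snoRNA, miRNA and rRNA) on V, 17 of 216 had an optimal summit within 1000 bp, or 7.87%, close to the 8.26% of all such genes in the genome. The snoRNA genes made up most of the 17. Of 55 snoRNA genes on V, which guide modification of ribosomal RNA, 12 had such a summit (21.8%), against 11.7% of the 291 snoRNA genes on the other chromosomes. Of the 12, ZK994.7 had the highest signal, 90.2, at 40 bp, followed by W06H8.17 (64.6 at 179 bp) and T03F7.8 (64.6 at 89 bp). The snoRNA genes C51F7.3 and C51F7.4 shared 1 peak. Many snoRNA genes lie in introns of host genes, and nearest to the ZK994.7 peak was pxn-1, a peroxidasin gene whose intron holds it. The same peak lay 903 bp from a tRNA gene, and 3 of 78 tRNA genes on V, 1 of 40 snRNA genes and 0 of 15 rRNA genes had an optimal summit within 1000 bp.

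Of 28 miRNA genes on V, 1 had an optimal summit within 1000 bp. It was mir-241, which with mir-48 belongs to the let-7 family that times the passage from the second to the third larval stage. The peak lay 461 bp from mir-241 and 2235 bp from mir-48, had signal 78.4 and merged rank 151, and was overlapped by a K highest region in all 4 replicates, with ranks 285, 90, 238 and 689. The nearest protein-coding start was that of unc-39, a SIX-type homeobox gene, at 6330 bp.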

How the data were processed

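Per the labels, ChIP-seq was done on eGFP-tagged UNC-62 in 4 replicates of 1 group. The authors deposited lists of peaks and background per replicate and for the merged replicates, and an optimal list; the notes deposited with the files derive the merged list from the 4 replicates' alignments and a control, and the optimal list from the merged and replicate lists. The deposited signal value of each region and, in another column, the offset of its summit were used; signal scales differ between lists, so replicates were compared by rank. Lists on both builds were deposited by the authors; ce11 is the main one. The aligner and caller: not given in the sources used here. In all, 0 columns went unused for lack of a sample. Depth is unknown.

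Summits were classed on WBcel235 with Ensembl release 115, and V was divided into 3 equal parts by summit position. Differences over the 4 replicates were tested by exact two-sided sign-flip permutation, with Benjamini-Hochberg adjustment over 10 tests, 6 fixed with the design and 4 added. Scripts (Python 3.11.15, numpy 2.4.6, pandas 2.3.3, scipy 1.17.1) were tested on simulated data. Genes named are the nearest within 5000 bp for the 6 strongest regions per part, up to 3 members per list with the highest signal at a start, noncoding genes near optimal peaks, and unc-62, mir-48 and mir-241; others are marked. The regions and lists were chosen with earlier results of these data known. The closing section gives the alternatives.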

Additional observations from a re-analysis of the deposited data

Results flagged for a closer look

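Among 44 sets of 4 replicate values on V, 3 had 1 replicate far from the others (a gap to the nearest that was most of the range); chance flags about 1 in 20 such sets. The middle part held 104 K highest regions in replicate 2 and 96 in each of the other replicates. The 5' UTR share of the left part was 8.51% in replicate 4 and 12.2% to 12.5% in the others. The 3' UTR share of the middle part was 0 in replicate 1 and 0.962% to 1.04% in the others, which is 1 region in each.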

How the results depend on the processing

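Of 92 alternative values of the 10 tested differences, 88 kept the sign, among them all 40 that left out 1 replicate, though sizes changed with the number of regions taken: over full lists the middle part of V differed from I to IV by 1.41 points and from X by 3.94, and the right part from I to IV by -2.85. The 4 that reversed were the promoter difference between middle and outer parts with double K (3.82 points) and with full lists (3.75), the coding exon difference with double K (-0.97), and the left part of V against I to IV without the unc-62 window (-2.54), an alternative chosen after seeing the data. Leaving out 1 replicate gave 8.10 to 8.34 per Mb for middle minus outer, 2.44 to 3.01 for left minus right, -6.73 to -3.42 points for promoters, 0.359 to 1.74 for coding exons, 0.0584 to 1.92 for promoters of V against I to IV and -3.99 to -3.35 for the share of V. For shares against I to IV it gave 6.83 to 8.02 in the middle, -11.2 to -10.1 on the right and 2.79 to 3.37 on the left, and 19.7 to 21.2 for the middle against X. Recurrence in all replicates was 0.862% to 1.81% with 1 left out, 0.386% with summits within 100 bp, 0.386% with 518 regions per replicate and 11.8% with full lists. Among merged regions of higher signal than the median the optimal share of V was 10.9%, chemoreceptor starts fell to 3.04% and TGACAG rose to 6.83%. Chemoreceptor starts were at 6.64% with a window of 500 bp and 18.2% with 2000 bp, and other V genes at 19.9% and 37.1%. TGACAG within 25 bp was at 2.76%. Every tested difference was taken within a replicate, so the tests are paired by replicate; no paired analysis between groups was possible because there is 1 group. These lists hold no counts, so what depth limits is unknown.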

Other observations

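The third-longest stretch of V without a merged region, 92209 bp at 15282276 to 15374484 in the right part with 28 protein-coding genes, held 15, 28, 17 and 28 regions of the full lists of replicates 1 to 4. The longest stretch held 3, 2, 1 and 1, and the second, 97523 bp at 8803837 to 8901359 in the middle part, held 4, 0, 5 and 7.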
